A study of Drosophila melanogaster with 3 samples.

Results

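The genes described here were the 6 at the strongest places of CG12659 binding away from promoters in *Drosophila melanogaster* embryos: ush, cbt, CG11050, lncRNA:Vinr, HmgD and HmgZ. They were 6 of the 18164 annotated genes on 6 chromosome arms and shared 4 distinct lead peaks. They were chosen on the pooled signal of those peaks, so every statement on the height of a lead peak is a description and none is a test. The material was whole embryos of pooled males and females, aged 0 to 24 hours, of a transgenic line that stably expressed CG12659 with GFP at its C terminus, and chromatin bound by the fusion was recovered with an anti-GFP antibody (ChIP-seq). The design had 1 group of 3 biological replicates and no second condition. A label field gives CG12659 as the antibody and another gives anti-GFP, which was taken as right. The promoter that drives the fusion was not given in the sources used here, and nothing beyond the word biological says that the replicates were separate collections. Whole embryos pool all cell types and many stages, so binding in more cells and stronger binding per cell cannot be told apart. What was deposited is lists of enriched regions, each with a signal value and without read counts, so depth was unknown. The regions that the authors kept for agreement between replicates, by irreproducible discovery rate and so called IDR peaks here, numbered 8952, of which 3236 had their summit over 500 bp from any transcription start site (TSS).

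CG12659 is the fly counterpart of INO80C, a small YL1-type subunit of the INO80 complex, an ATP-driven machine that moves nucleosomes. In yeast the complex is best known from the nucleosomes that border promoters. Among the genes, ush (u-shaped) encodes a zinc finger cofactor of GATA transcription factors, known from blood, heart and bristle development. The gene cbt (cabut) encodes a zinc finger transcription factor of the Sp and KLF family that acts in the transcriptional response to sugar. HmgD and HmgZ encode small HMG box proteins that bend DNA, and HmgD is abundant in early embryonic chromatin. lncRNA:Vinr is a long non-coding RNA reported in antiviral innate immunity. For CG11050 the annotation gives a protein-coding gene without a named function.

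The sequences at the summits are shown because the 4 lead summits each had an A and T rich core, a trait that the choice of genes did not use and that other peaks had as well. They are the plus strand of the release 6 genome (dm6), as provided by RefSeq. The first 3 run 100 bp to each side of the summit, at 2L:480987-481187 for ush and cbt, 2L:6612623-6612823 for CG11050 and X:12751251-12751451 for lncRNA:Vinr. The last 2 run 50 bp to each side of the strongest neighbouring promoter summits, at 2L:479981-480081 for cbt and X:12752315-12752415 for lncRNA:CR44619, and serve as a local contrast. The lncRNA:CR44619 summit was 498 bp past its TSS, about as far as the lncRNA:Vinr lead summit 516 bp before that TSS. Capitals mark matches, on either strand, to TATAAA (the TATA box), GATAA (the GATA factor core) and CGATA (part of the DNA replication-related element), and GATAA and CGATA overlap where the letters are TTATCG. No sequence is shown for HmgD and HmgZ.
ush and cbt lead peak: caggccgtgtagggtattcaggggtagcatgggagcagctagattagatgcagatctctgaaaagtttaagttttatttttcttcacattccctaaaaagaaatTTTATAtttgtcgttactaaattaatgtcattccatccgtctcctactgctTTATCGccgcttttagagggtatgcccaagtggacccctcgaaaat
CG11050 lead peak: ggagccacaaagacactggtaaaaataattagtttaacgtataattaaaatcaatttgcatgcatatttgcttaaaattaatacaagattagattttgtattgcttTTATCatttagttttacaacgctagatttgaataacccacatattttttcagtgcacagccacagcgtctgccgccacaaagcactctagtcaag
lncRNA:Vinr lead peak: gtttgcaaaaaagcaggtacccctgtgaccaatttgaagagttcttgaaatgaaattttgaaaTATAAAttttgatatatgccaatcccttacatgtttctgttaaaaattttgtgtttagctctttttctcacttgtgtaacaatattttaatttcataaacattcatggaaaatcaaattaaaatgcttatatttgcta
cbt promoter peak: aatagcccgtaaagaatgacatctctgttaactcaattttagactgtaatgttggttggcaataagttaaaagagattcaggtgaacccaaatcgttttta
lncRNA:CR44619 promoter peak: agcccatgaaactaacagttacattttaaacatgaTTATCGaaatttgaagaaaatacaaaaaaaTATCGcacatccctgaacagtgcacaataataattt

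In the stretches printed above, the TATAAA match of the ush and cbt peak began 4 bp past the summit on the minus strand, at position 481091 of arm 2L. The GATAA match of the CG11050 peak began 6 bp past its summit, and the TATAAA match of the lncRNA:Vinr peak lay 37 bp before its summit. Within 50 bp of the summit, TATAAA was found at 3 of the 4 lead peaks (ush and cbt, lncRNA:Vinr, HmgD and HmgZ), against 23.7% of the 3236 IDR peaks off promoters. GATAA was found at 1 of the 4, that of CG11050, against 23.9%. These are letter matches in sequence rich in A and T, and 4 sites are too few for a test. The other 9 motifs searched on both strands were at none of the 4. They were GAGAG, the GAGA factor core (9.55% of off-promoter peaks), CGATA (10.8%), TATCGATA, the full replication-related element (0.402%), and GGTCACACT, a core promoter motif (0.185%). The rest were CAGGTAG, bound by Zelda (0.525%), GCCAT, the Pho core (13.8%), CACGTG, the E-box (0.680%), CACCC, a KLF-type core (6.24%), and CACACACA, a simple repeat (1.14%). CGATA also lies within TATCGATA. No match says only that these letters were not in this window.

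All 4 lead summits sat in sequence of low GC content. Within 50 bp of the summit GC content was 28.7% for ush and cbt, 24.8% for CG11050, and 23.8% each for lncRNA:Vinr and for HmgD and HmgZ. The median was 31.7% over the IDR peaks off promoters (quartiles 26.7 and 38.6%) and 37.6% over those at promoters. The lead summits were thus below the off-promoter median, and those of CG11050, lncRNA:Vinr and the HMG pair were below its lower quartile. Among off-promoter peaks, 30.6% had a lower GC content than the ush and cbt summit, 13.8% than the CG11050 summit and 10.4% than the other two. Within 100 bp of the summit GC content was 40.3% for ush and cbt, above the off-promoter median of 34.3%, and 32.8% for CG11050, 26.9% for lncRNA:Vinr and 30.8% for the HMG pair, below it. The low stretch at ush and cbt was therefore narrow. Low GC content was not particular to the 4: within 50 bp it was 28.7% at the lncRNA:CR44619 promoter peak and 33.7% at that of cbt, and among the next off-promoter peaks 25.7% at Tlk and 28.7% at CG13323. The flanks differed more than the cores. At 300 bp before and after the summit GC content was 39.6 and 51.5% for ush and cbt, 33.7 and 60.4% for CG11050, 24.8 and 39.6% for lncRNA:Vinr, and 52.5 and 60.4% for the HMG pair. The core was lower than both flanks at 4 of 4 lead peaks, against 65.9% of off-promoter peaks, whose median flank was at 43.6% on either side. The contrast was widest on both sides at the HMG pair, while the lncRNA:Vinr core differed little from the sequence 300 bp before it. The longest run of A and T within 100 bp of the summit was 12 bp at CG11050 and 13 bp at each of the others. Such runs were not measured at other peaks, so nothing is read from their length. The plot of GC content by distance shows a dip around each lead summit. At lncRNA:Vinr the 51-bp windows had 47.1% at 100 bp before the summit and 29.4% at the summit. They had 19.6% at 75 bp past it and 47.1% at 150 bp past it. A separate low stretch there had 15.7% at 300 bp before the summit.

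**Figure D1:**
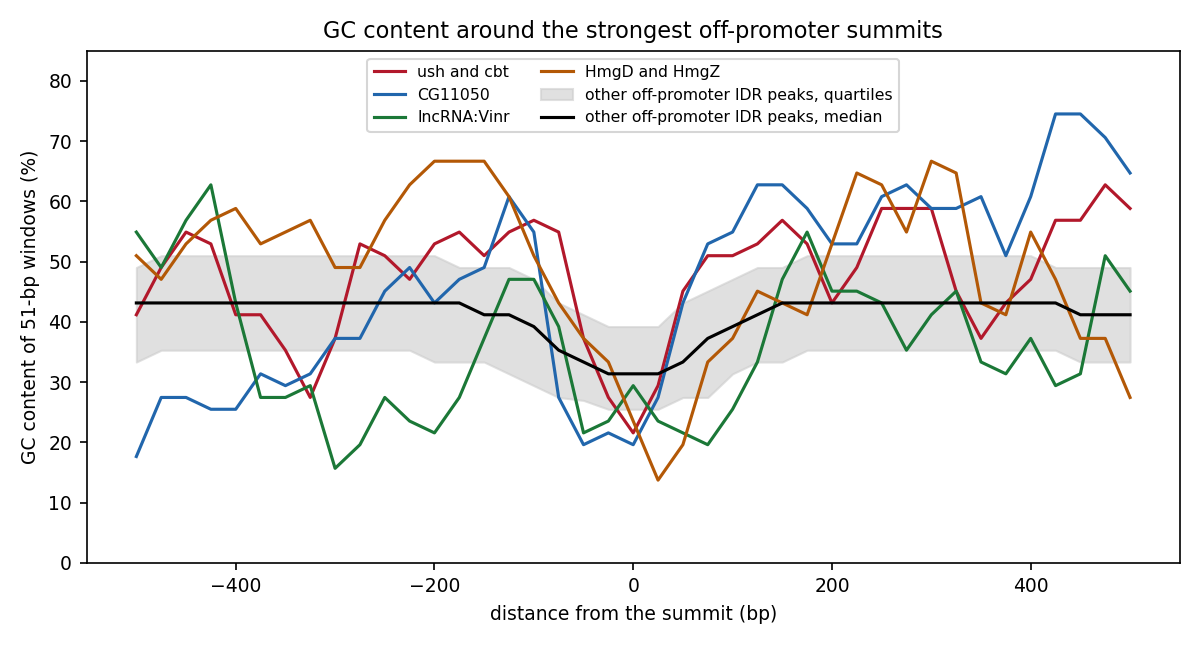
GC content (percent, in 51-bp windows) against distance from the summit (bp) for the 4 lead peaks (coloured lines), with the median (black line) and quartiles (grey band) of the other IDR peaks off promoters. At the summit all 4 lines lie below the black line, and that of lncRNA:Vinr also runs low at 200 to 300 bp before it.

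The peak shared by ush and cbt was the strongest of all 8952 IDR peaks. It spanned 787 bp at 2L:480561-481347 with its summit at 481087 and a pooled signal of 6549. The signal is the score given by the authors' caller, and as each list has its own scale it was read only within a list, by rank or as a fold over the median of the 8952 highest regions of the same list. The replicate signals were 2631, 2274 and 1607 in replicates 1, 2 and 3, and each was the highest of its list. The fold over the list median was 16.6, 19.9 and 19.1, a mean of 18.5 ± 1.72 (SD, n = 3). The 3 replicate summits fell within 9 bp of each other. ush (FBgn0003963, 2L:476220-540560, plus strand) has 5 transcripts from 4 TSSs, and cbt (FBgn0043364, 2L:476446-479688, minus strand) lies inside it. The summit was in intron 1 of 2 ush transcripts, 4867 bp past their TSS at 476220, and upstream of the other 3. It was also 1399 bp upstream of the only cbt TSS, which is the nearest TSS, so its position does not tell which of the genes it belongs to.

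The CG11050 peak was the second highest of all, and the most compact of the 4. It spanned 562 bp at 2L:6612417-6612978, with its summit at 6612723 and a pooled signal of 5724. The replicate signals were 2454, 1899 and 1388, at ranks 2, 4 and 3 (mean 3.0 ± 1.0, SD, n = 3). The fold over the list median was 15.5, 16.6 and 16.5 (16.2 ± 0.628), the smallest spread of the 4. CG11050 (FBgn0031836, 2L:6611011-6617117, plus strand) has 3 transcripts, each with its own TSS, and all 3 place the summit in the same intron. That intron 2 is 140 bp long (6612641 to 6612780), with the summit 82 bp from its left edge and 57 bp from its right, so the peak also covered the coding exons on either side. The nearest TSS was 1036 bp before the summit and the farthest of the 3 was 1712 bp before it.

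The lncRNA:Vinr peak lay inside an exon, unlike the other lead peaks. It was 897 bp wide, at X:12750796-12751692, with its summit at 12751351, a pooled signal of 4946 and rank 5. The replicate signals were 1823, 1681 and 1280, at ranks 6, 5 and 5 (5.33 ± 0.577), and the fold over the median was 11.5, 14.7 and 15.3 (13.8 ± 2.03). lncRNA:Vinr (FBgn0287633, X:12749894-12752350, plus strand) has 1 transcript made of a single exon of 2457 bp. The summit was 1457 bp past its TSS and 999 bp before its end. It was also 516 bp upstream of the TSS of lncRNA:CR44619, an overlapping non-coding gene on the same strand, and so just outside the 500 bp that defined a promoter here. The replicate summits lay within 27 bp of each other.

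The peak within HmgD and HmgZ was the last of the 4. It spanned 654 bp at 2R:21703071-21703724, with its summit at 21703436, a pooled signal of 4223 and rank 7. The replicate signals were 1619, 1488 and 1116, at ranks 11, 7 and 8 (8.67 ± 2.08), and the fold over the median was 10.2, 13.0 and 13.3 (12.2 ± 1.70). HmgD (FBgn0004362, 2R:21701458-21716727, plus strand) and HmgZ (FBgn0010228, 2R:21697488-21707861, minus strand) overlap on opposite strands. The summit was in intron 1 of 1 of the 4 HmgD transcripts and of 2 of the 4 HmgZ transcripts, and was 606 bp upstream of the HmgZ TSS at 21702830. It therefore lay in introns of both genes by their longer transcripts and upstream of both by their shorter ones. The replicate summits were within 21 bp of each other. In replicate 3 the region held a further summit at 21703608 with a signal of 372 (rank 243 in that replicate).

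Set side by side, the 4 peaks held the same order in each of the 3 replicates: ush and cbt, then CG11050, then lncRNA:Vinr, then the HMG pair. The ranges of mean ± SD of the folds overlap for each neighbouring pair in that order. Those SDs hold a shift between replicates that the peaks share, so their overlap does not judge the order within a replicate, which was not tested. All 10 of the highest off-promoter peaks had a lower fold in replicate 1 than in replicates 2 and 3. The fifth off-promoter peak, that of HmgD and HmgZ, was just inside the choice at 4223, and the sixth, in an intron of the kinase gene Lk6 (3R:11760833-11761442), was just outside at 4078. By signal alone the choice would also hold the fourth, in Trl, which encodes the GAGA factor (intron, 3L:14759248-14759800, 4609), which is not among the 6 genes. The fold over the median was 12.2 ± 1.70 for the HMG pair, 13.2 ± 1.26 for Trl and 11.4 ± 0.989 for Lk6 (SD, n = 3 each). In replicate 1 the HMG pair (10.2) was below Lk6 (10.5), so the boundary is narrower than the spread between replicates. The next 4 peaks by signal lay 11915 bp from CG13323 (3997), in CG32772 (3982), in CG9663 (3438) and in Tlk, a Tousled-like kinase gene (3412). Their folds had means of 11.3 ± 1.03, 11.4 ± 1.44, 9.77 ± 1.22 and 9.85 ± 1.18. The plot of folds by replicate shows all 10.

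**Figure D2:**
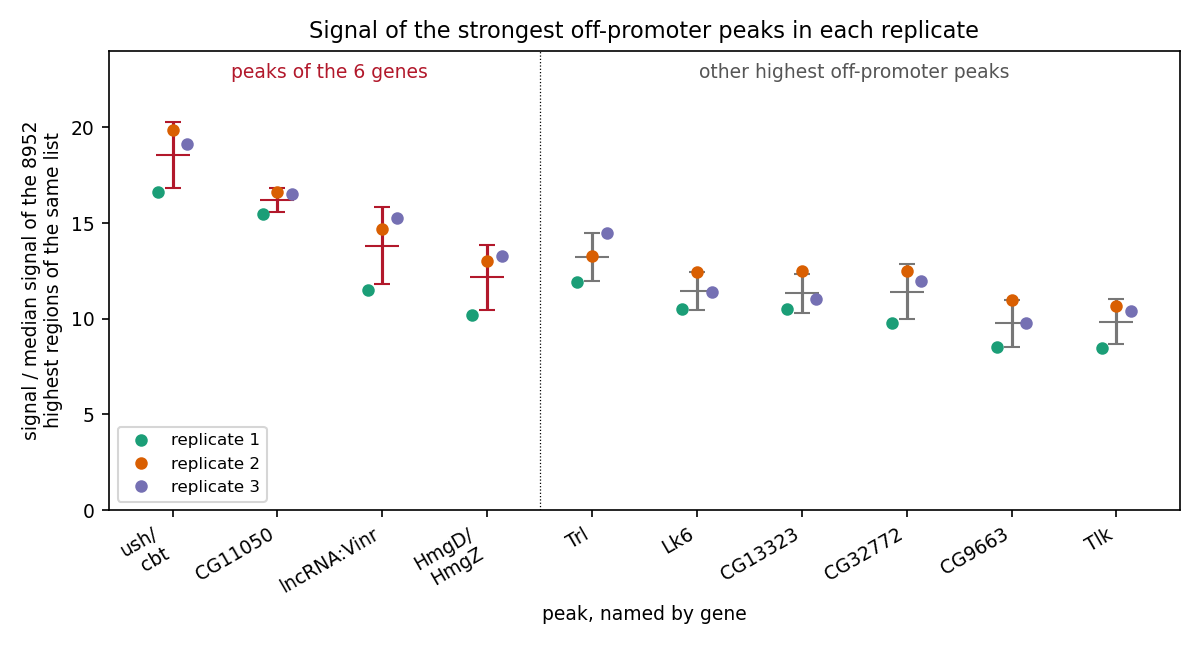
Signal of the 10 highest off-promoter peaks as a fold over the median of the 8952 highest regions of the same list (points, 1 per replicate; bars, mean ± SD, n = 3), with the 4 peaks of the 6 genes at left. The ush and cbt peak is the highest (18.5 ± 1.72), and the HMG pair (12.2 ± 1.70) overlaps Trl (13.2 ± 1.26) and Lk6 (11.4 ± 0.989).

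In the pooled list the lead peaks were broad. Each was wider than at least 98.9% of IDR peaks, whose median width was 490 bp. Many regions had this same width: 38.0% of IDR peaks were narrower than the 475 bp at CG13323, and 97.1% than the 491 bp at Tlk. Breadth was not particular to the 4. The share of narrower IDR peaks was 99.8% for CG9663, 99.6% for CG32772, 99.4% for Lk6 and 98.7% for Trl. In the replicates the ush and cbt region was 758, 765 and 420 bp wide, so replicate 3 stood apart, while the lncRNA:Vinr region (866, 857 and 818 bp) was steady. The CG11050 region measured 545, 487 and 433 bp and the HMG region 611, 628 and 535 bp. Replicate 3 had the narrowest region in each of the 4 cases. There the ush and cbt and the CG11050 regions were below the list median of 456 bp.

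Around the 6 genes, from 5 kb before to 5 kb past each, lay 39 IDR peaks in 132 kb, or 2.95 per 10 kb, against 0.669 per 10 kb over the whole genome. All 6 genes hold an IDR peak in this window, as do 65.1% of all genes, but each was chosen for one, so nothing is read from that count. Of the 83 pooled regions in the windows, 39 were in the IDR set, or 47.0% (95% exact binomial interval 35.9 to 58.3, counting error only), against 29.8% of the whole pooled list. These counts hold the 4 lead peaks, which the choice of genes put there. Without them, 35 of 79 were in the IDR set, or 44.3% (33.1 to 55.9). The neighbourhoods differed greatly. The ush and cbt window (74.3 kb) held 21 IDR peaks, CG11050 (16.1 kb) 3, lncRNA:Vinr (12.5 kb) 8 and the HMG pair (29.2 kb) 7. The pooled list held 46, 8, 10 and 19 regions there, in the same order. By replicate, the lists held 56, 49 and 44 regions at ush and cbt, 7, 8 and 6 at CG11050, 10, 10 and 12 at lncRNA:Vinr, and 19, 20 and 21 at the HMG pair. lncRNA:Vinr was the densest at 6.42 IDR peaks per 10 kb, a density that 99.9% of genes fell below, and CG11050 was the least dense at 1.86, with 72.7% below. For the other genes the share below was 87.3% (ush), 99.0% (cbt), 86.5% (HmgD) and 81.3% (HmgZ). The median over all genes was 0.903 per 10 kb.

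**Figure D3:**
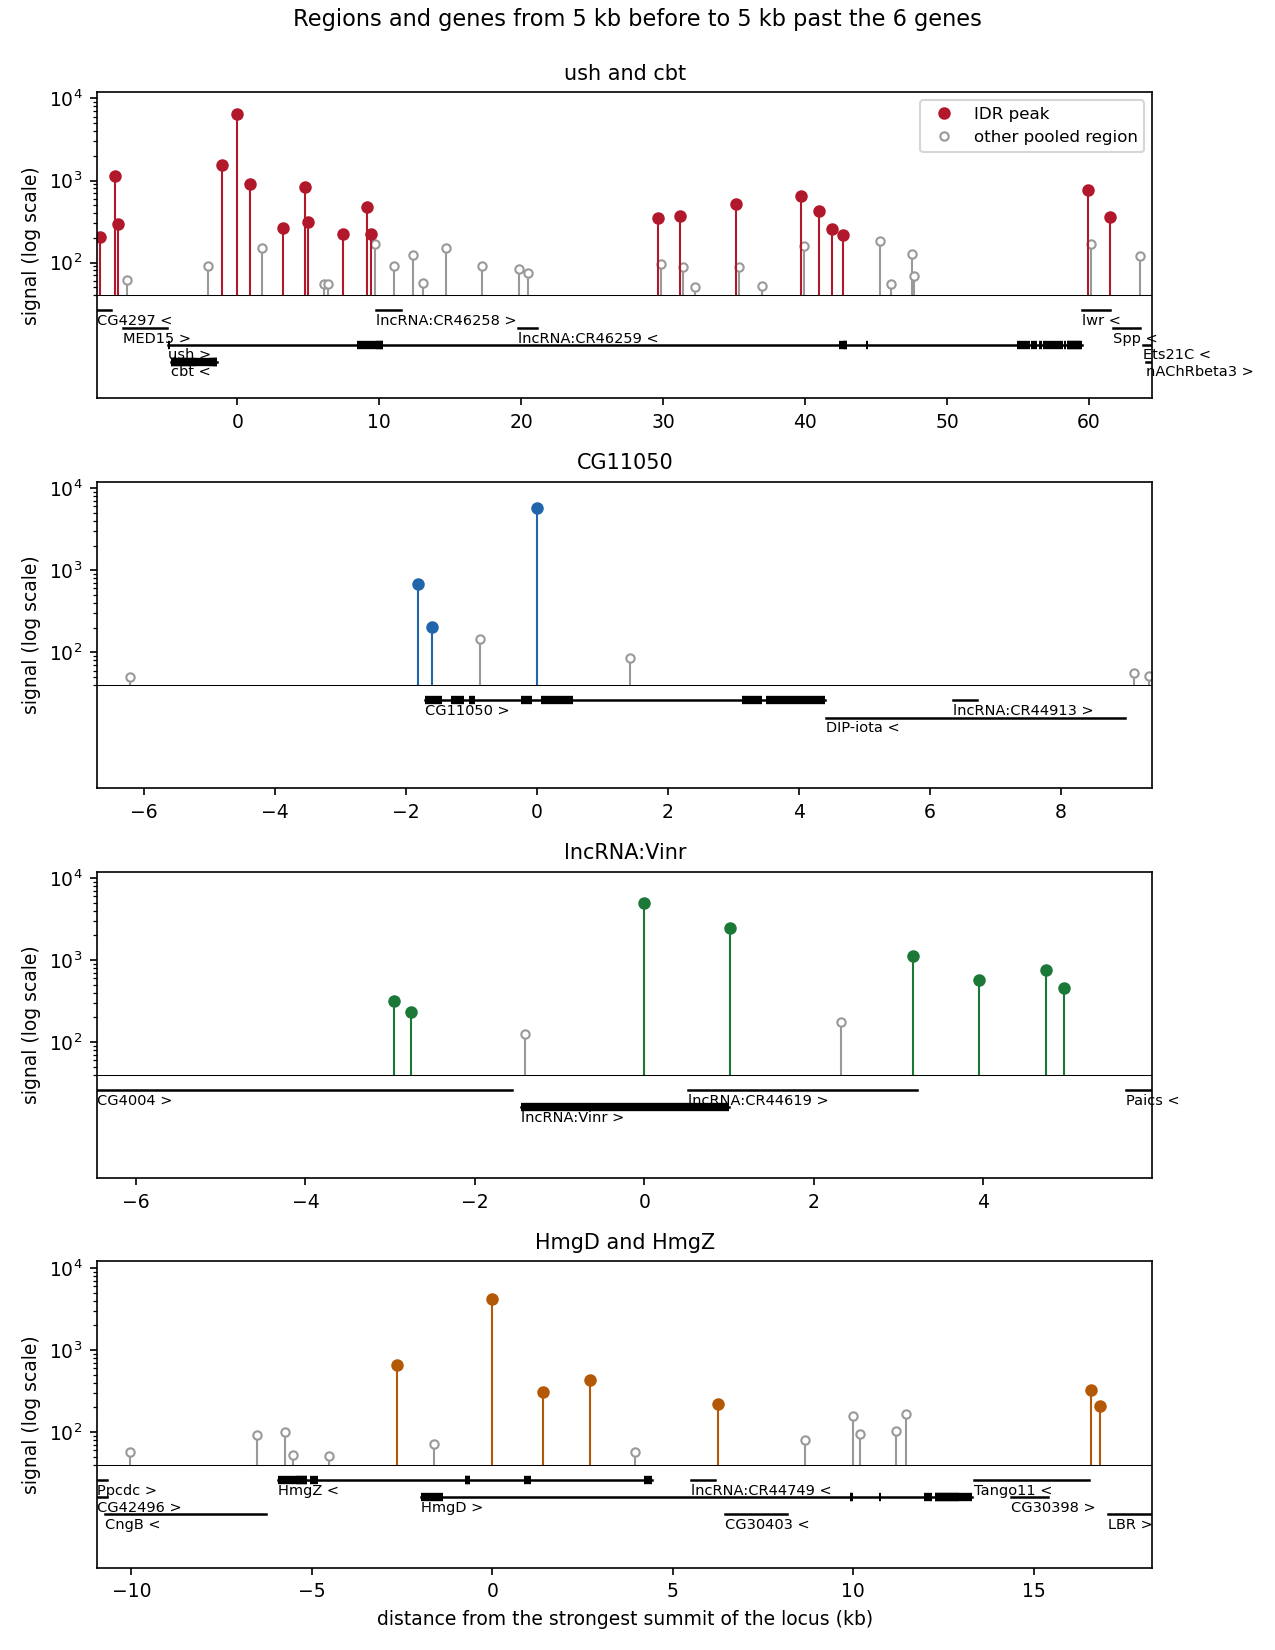
Pooled signal (log scale) of every region in the 4 windows against distance from the lead summit (kb), with IDR peaks filled and other pooled regions open, above the annotated genes (exons drawn as blocks for the 6 genes, > and < for the strand). The lead peak is by definition the highest in each map, 4.20 times the next at ush and cbt, 8.41 at CG11050, 2.01 at lncRNA:Vinr and 6.51 at the HMG pair.

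Each lead peak was by definition the highest of its window, and the maps of the windows show by how much. At CG11050 it was 8.41 times the next region, a promoter peak (7.45, 9.63 and 8.16 times in replicates 1, 2 and 3, a mean of 8.41 ± 1.11). In the HMG window the ratio was 6.51 (5.71, 6.81 and 8.12, a mean of 6.88 ± 1.21), and at ush and cbt it was 4.20 (4.05, 4.26 and 3.93, a mean of 4.08 ± 0.168). It was lowest at lncRNA:Vinr, at 2.01 (1.82, 1.90 and 2.15, a mean of 1.96 ± 0.169), where the next peak was itself among the strongest of the genome. The ratio was not taken for other windows, so whether it is high for peaks of this strength cannot be told.

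Off-promoter positions were common among the peaks of these windows. Of the 39 IDR peaks, 15 were promoter peaks, with a TSS at most 500 bp from the summit (38.5%, exact interval 23.4 to 55.4%), against 63.9% of all IDR peaks. The 4 lead peaks were off promoters by choice and are among the other 24, so the share and its interval carry that choice. A further 15 were in introns, against 25.5% of all IDR peaks, 3 in 3' UTRs, 3 in intergenic sequence, 2 in other exons and 1 in a 5' UTR. The interval treats peaks as independent, though 11 of the 15 intron peaks lay in the ush and cbt window.

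Most intron peaks lay within ush, whichever gene they belong to. Its window held 11 intron peaks and 8 promoter peaks, and 12 off-promoter summits lay in the body of ush. After the lead, the highest was the promoter peak of cbt (2L:479864-480267, signal 1559, rank 214), which held ranks 216, 217 and 200 in the replicates. A peak 881 bp past the lead summit, at 481968, had a signal of 901, and another at 485864 had 823. A stretch without IDR peaks from 490505 to 510708 followed, and then a group of 5 from 510708 to 522097 with signals of 348 to 651. Beyond the ends of ush lay peaks at CG4297 (signal 1123), near MED15, a Mediator subunit gene (296), and at lwr, the gene of the SUMO-conjugating enzyme, at its TSS (356) and in its 3' UTR (762).

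In the CG11050 window the 2 other IDR peaks were both at its own first TSS, 97 bp before it (signal 680, rank 1402) and 114 bp past it (201, rank 8275). No other gene there had an IDR peak.

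In the lncRNA:Vinr window the peak at lncRNA:CR44619 (X:12752151-12752570, signal 2460, rank 59) held ranks 61, 53 and 69 in the replicates. Its summit was 498 bp past the TSS, just inside the promoter distance of 500 bp, and 501 bp past it in replicate 2. A summit at 12754523 in an exon of the same gene had a signal of 1136, and 3 intergenic summits between 12755300 and 12756302, toward the purine synthesis gene Paics, had signals of 455 to 749. On the other side, 2 summits in the 3' UTR of CG4004 had 316 and 232.

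In the HMG window the next highest peak (signal 648) was 659 bp upstream of the first HmgD TSS and inside an intron of HmgZ. HmgZ also had peaks 331 bp (304) and 1643 bp (427) upstream of a TSS. The remaining ones were at lncRNA:CR44749 (219) and in the space between Tango11 and LBR, the lamin B receptor gene (324 and 207).

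Of the 6 genes, 4 (ush, cbt, CG11050 and HmgZ) had an IDR peak within 500 bp of a TSS of their own, against 35.0% of all genes. lncRNA:Vinr and HmgD had none. An off-promoter IDR summit lay in the body of 5 of the 6, the exception being cbt, against 7.16% of all genes; the choice of genes fixed that count and nothing is read from it. The signals at these promoters ranged widely. The TSS of the 2 ush transcripts whose intron held the lead summit had no region within 500 bp in the pooled list, and neither had the HmgZ TSS 606 bp from the HMG summit. The strongest peak at a ush TSS had a signal of 258 (rank 6493) and that at an HmgZ TSS 304 (rank 5453). The lncRNA:Vinr TSS had a region in the pooled list only, with a signal of 126 (rank 12564), and the 3 HmgD TSSs had pooled regions of 72.1, 155 and 101. cbt and CG11050 had the stronger promoter peaks, of 1559 (rank 214) and 680 (rank 1402), both above 386, the median signal of IDR peaks at promoters.

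The contrast between gene body and promoter can be set beside other genes. ush, HmgZ and CG11050 were among 861 genes with both a promoter IDR peak and an off-promoter one in the body. The ratio of off-promoter to promoter signal was 25.4 for ush, 13.9 for HmgZ and 8.41 for CG11050, above that of 99.9, 99.7 and 99.5% of these genes. The off-promoter peak was the higher in 359 of the 861 (41.7%), and the median ratio was 0.842. Since the numerator is the signal that chose the genes, this is a description. It also counts a peak for each gene that holds the summit. The peak counted for ush may belong to cbt, and it was 4.20 times the cbt promoter peak. The peak counted for HmgZ also lies in an intron of HmgD, which had no promoter IDR peak. The denominators were 258 for ush and 304 for HmgZ, below that promoter median of 386, and 680 for CG11050, above it.

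**Figure D4:**
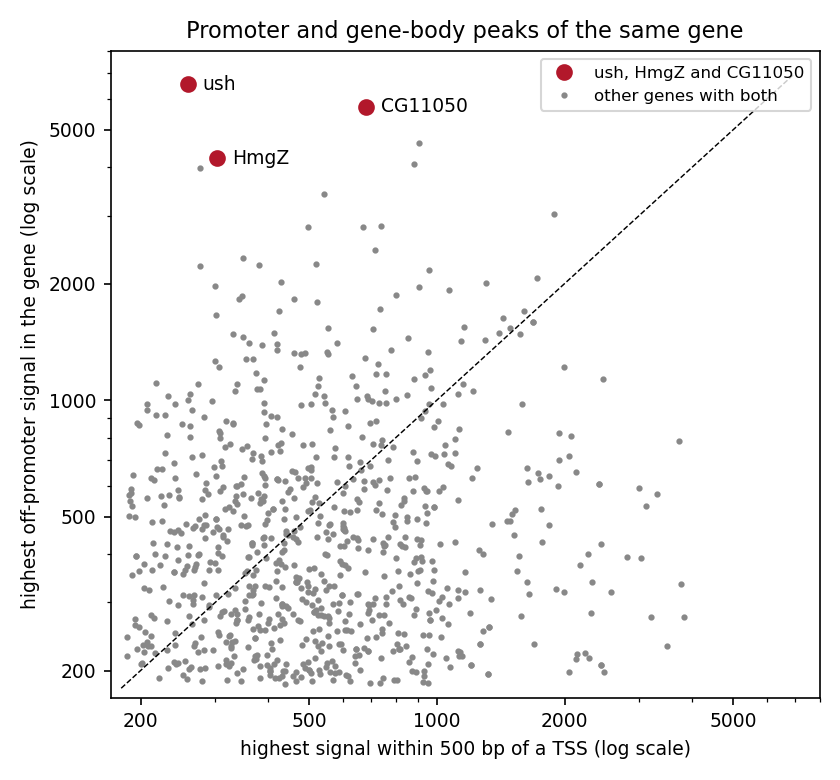
Highest off-promoter signal in the gene body against highest signal within 500 bp of a TSS (both log scales) for the 861 genes with both, with ush, HmgZ and CG11050 in red and equality dashed. The 3 genes lie far above the line, with ratios of 25.4, 13.9 and 8.41 against a median of 0.842.

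The peaks of the windows were compared between replicates by matching regions that overlap by 50% of the shorter. Of the 39, 37 had a match in all 3 replicates, and 33 were among the 8952 highest of each. By locus this was 18 of 21 at ush and cbt, 3 of 3 at CG11050, 7 of 8 at lncRNA:Vinr and 5 of 7 at the HMG pair. These counts were not made over all IDR peaks, so whether they are high or low for such peaks cannot be told. The 6 exceptions were weak or close to another peak. The peaks at 490505 in ush and 12756099 near Paics had no match in replicate 3. The peak at the last ush TSS had ranks of 5730, 9493 and 18605, and the HmgZ promoter peak 3789, 4795 and 27974. That at lncRNA:CR44749 had 5649, 8880 and 11833, and a peak in CG4297 9532, 4287 and 8331. Replicate 3 gave the lowest rank, or no match, in 5 of the 6. In the plot of ranks the lead peaks are tight and the weak peaks spread. Of the 39, 8 shared their matched region in replicates 1 and 2 with a neighbour, so those ranks are not independent. As the highest overlapping region was taken, a weak peak could carry the rank of a stronger neighbour. The CG11050 peak at 6611125 was counted by ranks 1108, 1791 and 1425. The replicate regions with the nearest summits ranked 10427, 7001 and 10323, so by them it would not be among the 8952 highest of each. The count of 33 includes such peaks, and it was 28 with summits within 100 bp.

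**Figure D5:**
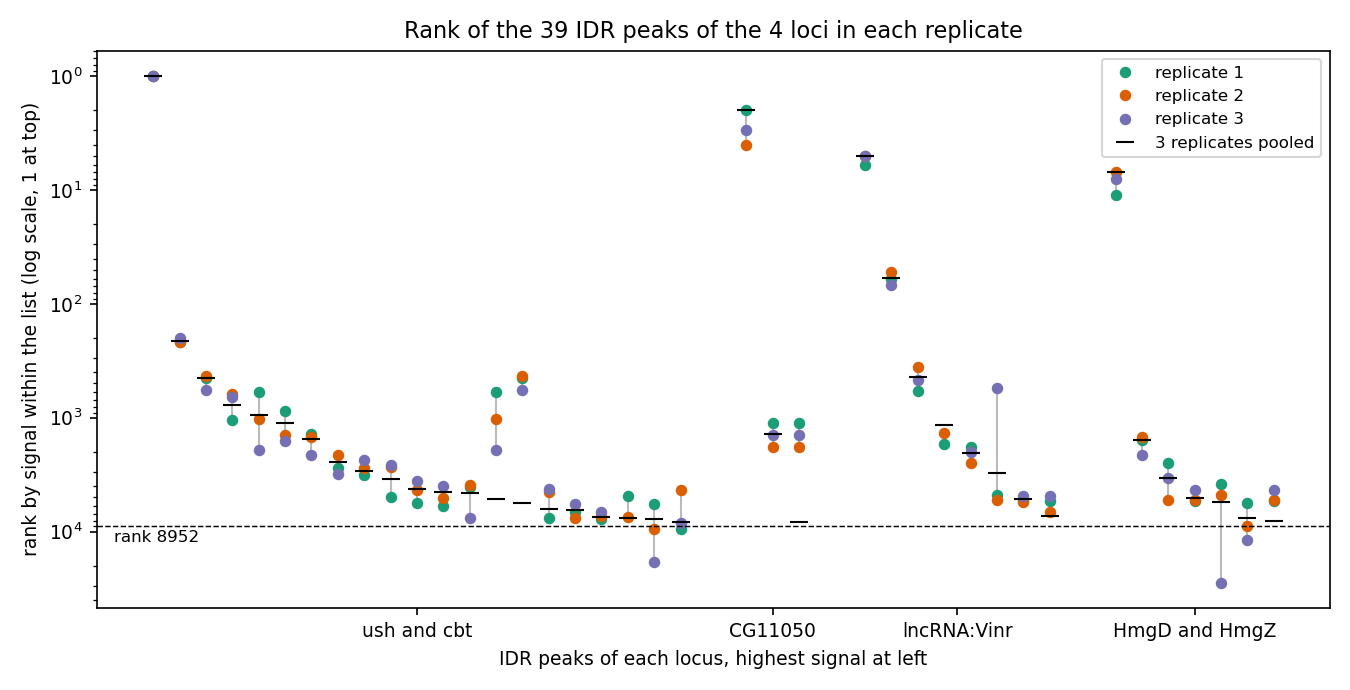
Rank by signal (log scale, 1 at the top) of each of the 39 IDR peaks in the 3 replicate lists (points) and in the pooled list (dashes), by locus and in order of pooled signal, with rank 8952 dashed. The lead peaks hold ranks 1 to 11 in every replicate, and 33 of the 39 stay above the dashed line in all 3, some by the rank of a stronger neighbour.

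Genes related to the 6 by family or pathway carried IDR peaks to different extents. Among 6 GATA factor and cofactor genes, 3 had a promoter peak (ush; GATAd, signal 446; GATAe, 207), and 3 an off-promoter peak in the body (ush; GATAd, 580; pnr, 190). The GATA factor genes srp, which acts in blood development, and grn had neither. Of 9 Sp and KLF genes, 3 had a promoter peak, led by cbt (1559) and Spps (574), 2 had an off-promoter one (dar1, 902; luna, 319) and 4 had neither. Of 4 genes of sugar sensing, cbt had a promoter peak, as had bigmax (879) and Mondo (315), whose proteins pair in a sugar-sensing bHLH dimer. None of the 4 had an off-promoter peak in the body, and sug had neither kind.

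Of 19 HMG box genes, 10 had a promoter peak, with Sox14 (2752) and bbx (1993) the strongest, and 5 an off-promoter one. HmgD and HmgZ shared theirs at 4223, bbx had 1215, cic 834 and Dsp1 586, and 7 had neither. Of 10 Toll and NF-kB genes, 8 had a promoter peak, led by cact (1164), the IkB gene, and the kinase gene pll (967). The off-promoter peak of lncRNA:Vinr (4946) stood above those of Dif (998), Myd88 (443) and cact (360), and the receptor gene Tl had neither. Over all genes 35.0% had a promoter peak and 7.16% an off-promoter one in the body, and in each list the 6 genes themselves count toward the totals.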

How the data were processed

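Per the labels, chromatin was fragmented by sonication to 200 to 800 bp. The authors deposited region lists for each of 3 replicates, for the replicates pooled and for the IDR set, called, per the file notes, against 1 control alignment (not analysed here). The aligner, the caller, their versions and the cutoff of the IDR step were not given in the sources used here. Each deposited region has a signal value, the authors' own score, with no read counts beside it, so intervals cover counting error only. The IDR set was the top of the pooled list by signal. The dm3 lists were not used.

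The dm6 lists were read with the Ensembl release 115 annotation (BDGP 6.54), leaving out transposable elements, and coordinates are 1-based. Every region overlapping a window from 5 kb before to 5 kb past each gene was taken. Promoter peaks were those with any TSS at most 500 bp from the summit. A replicate region matched where it overlapped by 50% of the shorter region, the highest if several did. Motifs were searched within 50 bp of summits on both strands.

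The 6 genes, the 5 gene lists and the 11 motifs were chosen with earlier results of these data known. Genes named were the 6, those at IDR peaks of their windows, those at the 10 highest off-promoter peaks, and the strongest 2 of each list; further list members were named after their values were seen. CG9895 was not found in the annotation by that name. The overlap rule, the motif search and the TSS distances were checked on simulated data. The simulated regions stood apart, so matches shared between neighbours were not checked. No test was run, since there is 1 group and the signal chose the genes. The tools were matplotlib 3.10.9, scipy 1.17.1, pandas 2.3.3 and numpy 2.4.6 under Python 3.11.15.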

Additional observations from a re-analysis of the deposited data

How the results depend on the processing

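Of the lead ranks, counts, motif matches and shares recomputed, 78 stayed near the reported value, the lead ranks among them, and 10 moved. Near meant within 1 SD for ranks and within the interval for shares. The rule for counts was loose. Under it the 39 IDR peaks stayed near at 30 (2 kb) and 48 (10 kb), as did TATAAA at 2 of the 4 lead peaks within 25 bp. Many of the 78 were motif counts that stayed at 0. Folds over the median were not recomputed. With the 4476 IDR peaks of higher signal alone, the windows held 23 IDR peaks in place of 39, with 12 at ush and cbt and 3 at the HMG pair. A window of 10 kb on each side gave 5 at CG11050 and 12 at the HMG pair, and 1 of 2 kb gave 4 at lncRNA:Vinr. A promoter distance of 200 bp left 7 of the 39 at promoters in place of 15. At 1000 bp 2 of the 4 lead peaks were off promoters, since those of lncRNA:Vinr and of the HMG pair lie 516 and 606 bp from a TSS. Within 100 bp of the summit CGATA was at 1 lead peak and GATAA at 3. Each of these follows from the wider or narrower setting. The share of off-promoter peaks with each motif was taken within 50 bp only. Nothing is therefore read from the motif counts within 25 or 100 bp.

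Leaving out each replicate in turn, the mean rank stayed at 1 for ush and cbt and ran from 2.5 to 3.5 for CG11050, from 5 to 5.5 for lncRNA:Vinr and from 7.5 to 9.5 for the HMG pair. The IDR peaks also among the highest of both remaining replicates numbered 33 to 37 in all, 18 to 19 at ush and cbt, 3 at CG11050, 7 to 8 at lncRNA:Vinr and 5 to 7 at the HMG pair. The count of 33 found among the highest of all 3 replicates was 35 with any overlap and 28 with summits within 100 bp, 2 settings added after seeing the data, as was leaving out the lead peaks from the share in the IDR set (44.3% in place of 47.0%). No paired analysis was possible because there is 1 group. Depth was unknown, the IDR step was not repeated, and 3 replicates limit every SD.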
